A study of Drosophila melanogaster with 16 samples.

Results

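The Jonah and trypsin genes encode the main family of serine proteases that the Drosophila gut secretes to digest dietary protein. They were taken from the count table by symbol: names that begin with Jon and a number, names that end in Try, the numbered Ser genes, and yip7. The rule found 32 of 17873 genes, of which 17 are Jonah genes with yip7, 11 are trypsin genes and 4 are Ser genes. The RNA came from dissected midguts of Drosophila melanogaster larvae, sequenced as stranded polyadenylated libraries. Control larvae were mex-GAL4 / attP40, and larvae with Hnf4 silenced (Hnf4i) carried mex-GAL4 with a UAS-Hnf4 RNAi hairpin inserted at attP40. Both genotypes therefore carried the driver, both were fed yeast alone at 25 °C in vials seeded with 40 embryos, and both were dissected on day 3 (late L2, 30 midguts per library) and on day 4 (early L3, 10 midguts per library). Each of these 4 groups had 4 biological replicates, which makes 16 libraries. The driver mex-GAL4 is active in enterocytes, the absorptive and secretory cells of the gut, the silencing rests on 1 hairpin, and the larvae were of undetermined sex.

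Serine proteases cut peptide bonds with a serine in the active site, and the gut makes them as inactive precursors that are cleaved after secretion into the lumen. Trypsins cut after the basic residues lysine and arginine, whereas the Jonah enzymes are chymotrypsin-like proteases of the same fold, and yip7 was named for an interaction of its product with the protein Yippee. Most of these genes lie in short tandem arrays that arose by duplication, and neighbouring copies are often very similar in sequence. Hnf4 is a nuclear receptor that acts in the fly gut and fat body on lipid and sugar metabolism.

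Library totals ranged from 44546248 to 83418453 counts. Levels are given as CPM, counts scaled to the size of each library with TMM factors. The targeted Hnf4 transcript measured 91.9 ± 2.69 CPM (SD, n = 4) in day 3 control libraries and 48.4 ± 2.00 CPM in day 3 Hnf4i libraries, or 52.6% of control. On day 4 the levels were 128 ± 4.09 and 64.6 ± 4.31 CPM, or 50.6% (exact two-sided permutation p = 0.0286 on each day, the smallest that 4 against 4 can give). The enterocyte markers mex1, Myo31DF and nub were present in every library. Their summed level was 779 to 801 CPM in control and 699 to 758 CPM in Hnf4i midguts on day 3, and 769 to 869.8 CPM in control and 944 to 1056 CPM in Hnf4i midguts on day 4, so that the genotypes separated on both days, in opposite directions. Markers of copper and iron cells, which are other epithelial cells of the midgut, summed to 2932 to 3484 CPM on day 3 and to 7627 to 9227 CPM on day 4 over both genotypes. Most of this sum came from the ferritin genes Fer1HCH (1262 to 4263 CPM over all libraries) and Fer2LCH (1319 to 4643 CPM). The other listed markers, lab (21.3 to 28.6 CPM) and Vha100-4 (251 to 381 CPM), had much narrower ranges over all libraries. Transcripts of 7 genes of the fat body, a tissue that lies against the gut, summed on day 3 to 11.7 to 15.7 CPM in control midguts. In Hnf4i midguts of day 3 they summed to 18.1 to 41.6 CPM, with the highest value in replicate 3. They summed to 23.3 to 141 CPM in control midguts on day 4. In the Hnf4i midguts of day 4 they reached 1116, 855 and 2823 CPM in replicates 1, 2 and 4 but 12.8 CPM in replicate 3. Visceral muscle markers summed to 2760 to 4082 CPM in that group, below the 4471 to 5062 CPM of the control midguts of the same day. All 6 salivary gland markers summed to less than 1 CPM in each library (0 to 0.960). The part of these markers' cell types in the results was not tested, and because the samples are bulk midguts, fewer cells of a type and less RNA per cell cannot be told apart.

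Of the 32 genes, 26 lie in 6 loci (BDGP6) that hold more than 1 of them, with gaps of at most 20 kb. The trypsin cluster on chromosome 2R (positions 11336840 to 11357537) holds all 11 trypsin genes. The Jon25B cluster on 2L holds 3 Jonah genes, the Jon65A cluster on 3L holds 4 with yip7, the Jon66C pair on 3L and the Jon99F pair on 3R hold 2 each, and the Jon99C cluster on 3R holds 3. Jon44E, Jon74E, Ser6, Ser7, Ser8 and Ser12 stand alone. How reads shared between similar copies were counted is not given in the sources used here, so the split of reads between neighbours is uncertain. Exons of Jon44E overlap those of CG8586 and exons of deltaTry those of CG13202, in both cases on the other strand, and the strand setting of the counting is not given either. Ser8 lies within ATP8A.

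Levels are compared between genes as CPM per kb of exon. The most abundant genes were Jonah genes. Jon25Biii had the highest mean in all 4 groups, at 13731 ± 621 CPM per kb (SD, n = 4) in control midguts on day 3 and 26197 ± 1121 on day 4. Over the 16 libraries it was followed by Jon65Aiv, Jon99Cii, Jon66Ci, Jon99Ciii and Jon65Aiii, and all of the 12 highest genes were Jonah genes or yip7. The highest trypsins were betaTry and epsilonTry, at mean levels of 1436 and 1409 CPM per kb, and 8 of the other trypsins lay between 134 and 429 CPM per kb. Jon74E, at 43.9 CPM per kb, was the lowest Jonah gene. At the bottom, gammaTry held 11 to 100 counts per library and Ser8 held 0 to 31. Ser7 held 0 to 12 counts and Ser12 was at 0 in all 16 libraries, and neither passed the count filter, which left 30 genes to test.

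**Figure D1:**
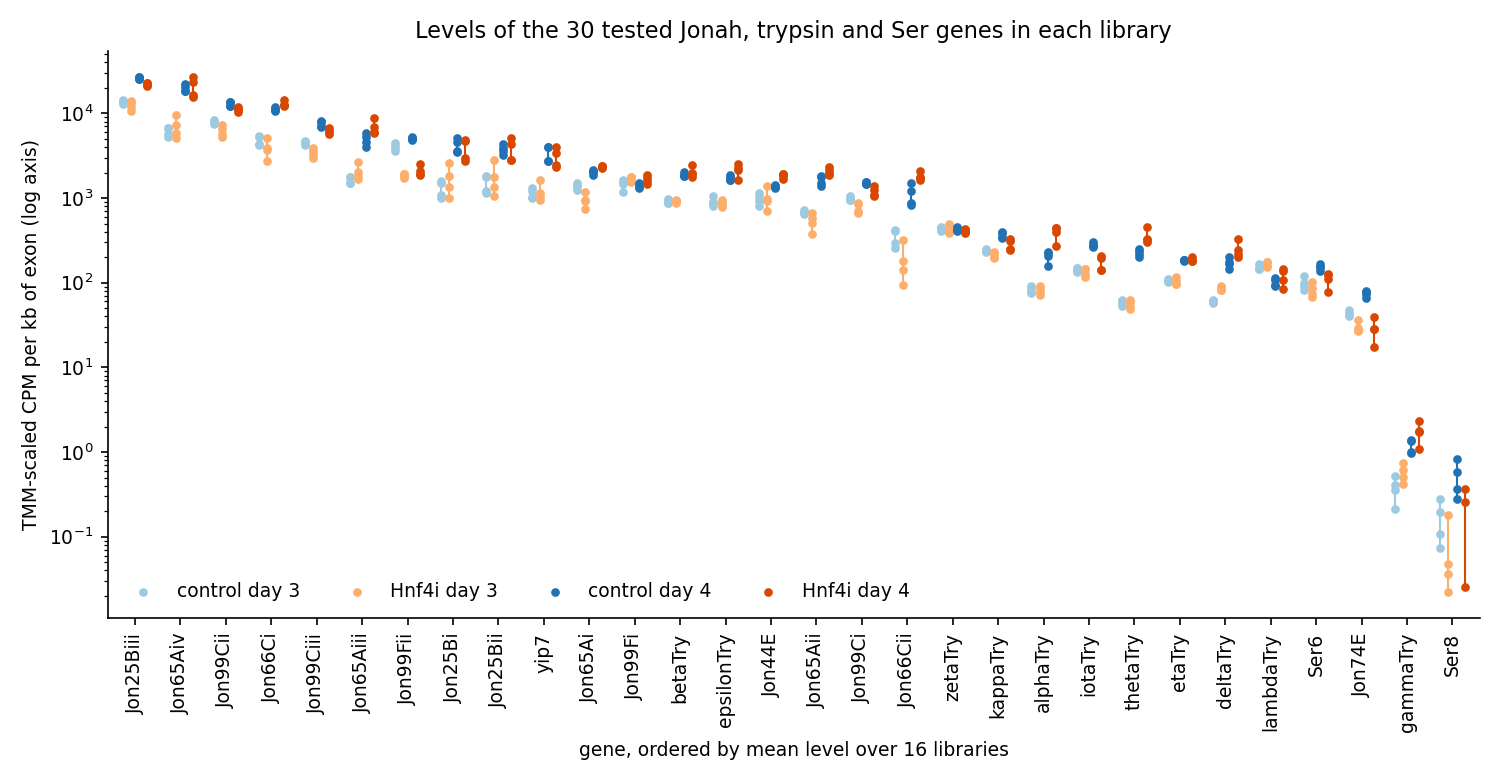
Level of each of the 30 tested genes in TMM-scaled CPM per kb of exon (log axis), with 1 point per library and a line over the range of each group of 4, where genes are ordered by their mean over 16 libraries and libraries at 0 counts are not drawn. Jon25Biii has the highest mean in every group, betaTry and epsilonTry are the highest trypsins, and gammaTry and Ser8 lie far below the others.

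The order within a group was close in places. In control midguts on day 3, Jon25Biii and Jon99Cii each stood apart from the next gene, whereas the ranges of Jon65Aiv, Jon66Ci, Jon99Ciii and Jon99Fii overlapped from one to the next (6084 ± 762, 4804 ± 553, 4532 ± 217 and 4055 ± 368 CPM per kb). In control midguts on day 4 the first 5 genes, Jon25Biii, Jon65Aiv, Jon99Cii, Jon66Ci and Jon99Ciii, did not overlap their neighbours. In Hnf4i midguts on day 4 the ranges of Jon25Biii (22270.2 ± 899.9 CPM per kb) and Jon65Aiv (20619 ± 5372 CPM per kb) overlapped. Jon99Fii held rank 6 in control midguts on both days, and rank 7 on day 3 and rank 12 on day 4 in Hnf4i midguts.

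Together the 32 genes took a large part of each library. Their share of all counts was 5.29, 5.54, 5.53 and 5.42% in control replicates 1 to 4 on day 3 and 5.11, 5.01, 5.25 and 5.02% in the Hnf4i replicates. On day 4 it was 8.59, 8.21, 9.40 and 9.74% in control and 8.75, 8.78, 9.42 and 10.3% in Hnf4i replicates. All 8 libraries of day 4 lay above all 8 of day 3, while the genotypes overlapped on day 4 and on day 3 the 4 Hnf4i libraries lay below the 4 control libraries. The means were 5.45 ± 0.119 and 5.10 ± 0.113% (SD, n = 4) on day 3 and 8.99 ± 0.704 and 9.31 ± 0.728% on day 4. The 6 most abundant genes made up 66.9 to 72.3% of these counts in each library. The 11 trypsins together took only 0.313 ± 0.0165% of control libraries on day 3 and 0.459 ± 0.0219% on day 4. In Hnf4i libraries they took 0.324 ± 0.0124% on day 3 and 0.556 ± 0.0461% on day 4. The genotypes overlapped in this trypsin share on day 3 but not on day 4 (0.438 to 0.488% in control and 0.507 to 0.614% in Hnf4i libraries).

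**Figure D2:**
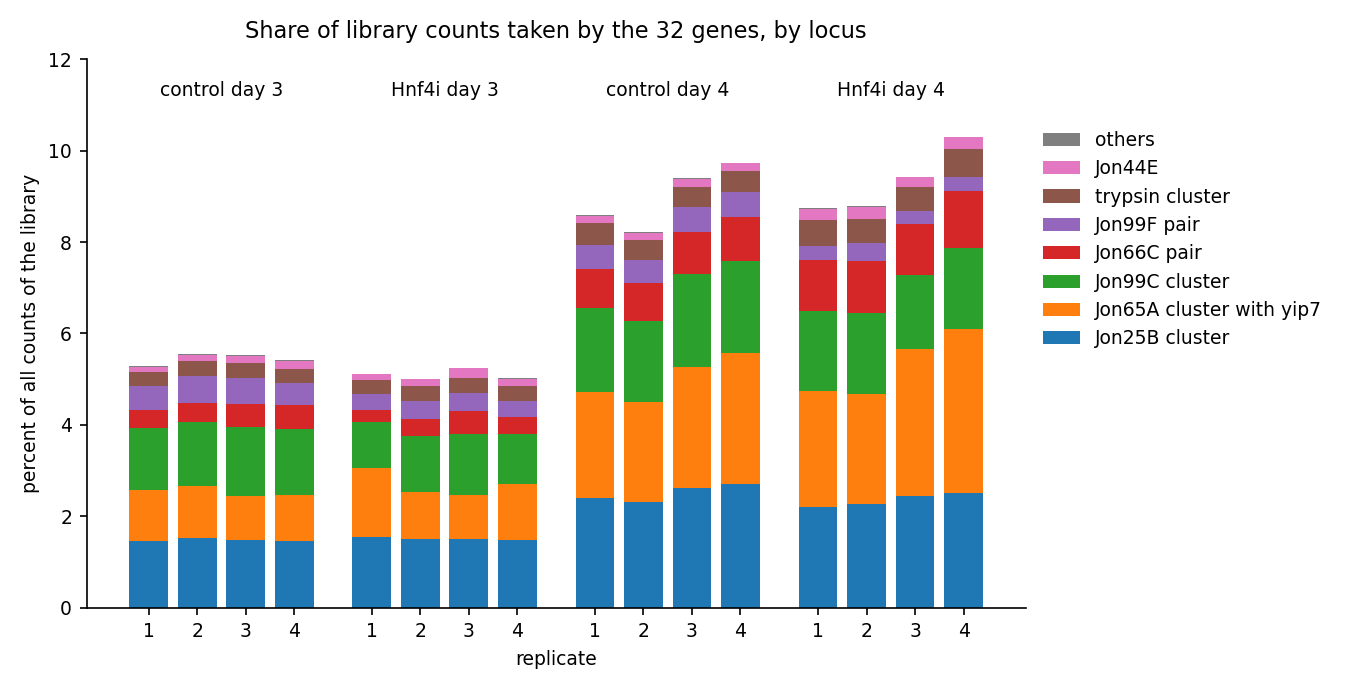
Percent of all counts of each library taken by the 32 genes, stacked by locus, with 4 libraries per group. Stacks of day 3 reach 5.01 to 5.54% and those of day 4 reach 8.21 to 10.3%, where the Jon65A cluster with yip7 grew most.

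The comparison of control midguts between the days asks how the proteases change as larvae pass from L2 to L3. To be called, a gene needed an adjusted p under 0.05 together with a log2 fold change of 0.5 or more in either direction. Most of the tested genes rose. Of the 30 tested genes 24 rose and 1 fell, where 17.0% of all genes tested rose and 22.2% fell. The median log2 fold change of the 30 was 0.96, beside 0.01 over all genes tested. Of the 17 Jonah genes with yip7, 14 rose and none fell (median 0.93). Of the 11 trypsins 9 rose and 1 fell (median 0.98), and of the 2 tested Ser genes Ser6 rose. The libraries of the days did not overlap for 26 genes that were higher and 1 that was lower on day 4, beside 29.1 and 29.9% of all genes tested.

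Among the Jonah genes the strongest rises were in the Jon25B, Jon65A and Jon66C loci. Jon65Aiv (FBgn0250815, chromosome 3L, positions 6039155 to 6040135) stood at 6079, 6081, 4723 and 5116 CPM in day 3 control replicates 1 to 4 and at 16592, 16492, 18657 and 20209 CPM in those of day 4. Every day 4 library lay far above the highest day 3 library, with a log2 fold change of 1.71 (SE 0.19, adjusted p = 4.34e-07). Jon25Bi (FBgn0020906, chromosome 2L, positions 4954279 to 4955144) went from 1367, 1303, 941 and 867 to 3034, 3147, 3959.9 and 4427 CPM (log2 fold change 1.70, SE 0.26, adjusted p = 2.54e-05). Jon66Cii (FBgn0035887, chromosome 3L, positions 8392820 to 8393649) went from 213, 247, 341 and 349.8 to 718, 692, 1237 and 993 CPM (log2 fold change 1.66, SE 0.29, adjusted p = 8.40e-05), with replicates 3 and 4 above replicates 1 and 2 on both days. The groups of day 3 and day 4 did not overlap for any of these 3 genes.

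Other abundant Jonah genes rose as well. Jon25Biii (FBgn0031653, chromosome 2L, positions 4949941 to 4950767) went from 10618, 11395, 11678 and 11732 to 20957, 20773, 22430.2 and 22499.8 CPM (log2 fold change 0.93, SE 0.07, adjusted p = 4.90e-09). Jon66Ci (FBgn0035886, chromosome 3L, positions 8391540 to 8392377) went from 3579, 3679.7, 4346 and 4499 to 9095, 8964, 9427 and 10069 CPM (log2 fold change 1.22, SE 0.14, adjusted p = 6.56e-07). Jon65Aiii (FBgn0035665, chromosome 3L, positions 6050757 to 6051690) went from 1544, 1555, 1328 and 1304 to 4000.02, 3524, 4643 and 5108 CPM (log2 fold change 1.59, SE 0.16, adjusted p = 1.05e-07). In each of these genes the 2 days did not overlap. The neighbours Jon99Cii (FBgn0003356, chromosome 3R, positions 29923754 to 29924615) and Jon99Ciii (FBgn0003357, chromosome 3R, positions 29922216 to 29923455) rose by 0.72 and 0.72 on the log2 scale, from 6369, 6618, 7159.99 and 6847 to 10528, 10524, 11808 and 11623 CPM and from 5269, 5604, 5916 and 5692 to 8782, 8540.02, 9947 and 9807 CPM. The Jonah genes that were not called were Jon44E (0.47), Jon99Fii (0.31) and Jon99Fi (-0.06).

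Among the trypsins, thetaTry (FBgn0011555, chromosome 2R, positions 11341714 to 11342760) had the largest change of all members called in this comparison, from 55.7, 65.6, 63.4 and 60.5 to 248, 213, 229 and 265 CPM (log2 fold change 1.96, SE 0.12, adjusted p = 2.29e-10). The days stood wide apart, with a lowest day 4 library of 213 CPM and a highest day 3 library of 65.6 CPM. The gene deltaTry rose by 1.52 (log2), alphaTry by 1.32, betaTry by 1.04, iotaTry by 0.98, epsilonTry by 0.91, etaTry by 0.81 and kappaTry by 0.62. The low gammaTry was called as well (1.66). lambdaTry was the only gene of the family to fall, from 138, 156, 139.6 and 142 CPM to 102, 109, 87.0 and 89.9 CPM, a log2 change of -0.57 (SE 0.13, adjusted p = 0.000849). It lies 5 bp from kappaTry, which rose. zetaTry stayed within 389.7 to 427 CPM on day 3 and 388 to 429.7 CPM on day 4.

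Counts are relative to the rest of each library, and the scaling mattered for the smaller rises. With libraries scaled to their totals, the median log2 fold change of all genes tested moved by -0.30 in control and by -0.26 in Hnf4i midguts. The share of called genes that rose went from 43.4 to 21.1% in control and from 44.1 to 25.0% in Hnf4i midguts. In control, 901 rather than 1668 of all 9801 genes tested rose, and 17 rather than 24 members did. The 7 that lost the call were Jon65Ai, Jon74E, Jon99Ci, Jon99Cii, Jon99Ciii, kappaTry and Ser6, and the median of the members was then 0.66 beside -0.29 over all genes. Jon65Ai also lost its call without control replicate 1 of day 3 (0.50, adjusted p = 0.000748).

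Hnf4i midguts were compared between the days in the same way. Of the 30 genes 21 rose and 0 fell, where 18.8% of all genes rose and 23.9% fell, and the median was 1.12 beside -0.01 over all genes. Again 14 of 17 Jonah genes with yip7 rose, together with 7 of 11 trypsins, and no Ser gene was called. The days did not overlap for 21 genes that were higher and 1 that was lower, beside 27.7 and 30.7% of all genes tested. Because each genotype has its own libraries, the changes can be read side by side. Jon66Cii rose from 77.5, 119, 265 and 150.2 CPM in Hnf4i replicates 1 to 4 on day 3 to 1471, 1418, 1339 and 1729 CPM on day 4 (log2 fold change 3.29, SE 0.31, adjusted p = 5.70e-08), the largest rise of the family in this comparison. The day 3 libraries were uneven, with replicate 3 at 3.41 times replicate 1, whereas the day 4 libraries lay close together. thetaTry went from 62.7, 65.9, 56.2 and 51.6 to 338, 341, 313 and 470.3 CPM (log2 fold change 2.63, SE 0.12, adjusted p = 1.59e-11), and replicate 4 was the highest of day 4. alphaTry (FBgn0003863, chromosome 2R, positions 11344260 to 11345119) went from 79.6, 61.8, 66.5 and 75.3 to 340.4, 233, 383 and 382 CPM (log2 fold change 2.24, SE 0.15, adjusted p = 1.02e-09), with replicate 2 the lowest of day 4. Jon65Aii (FBgn0035666, chromosome 3L, positions 6052321 to 6053215) went from 316, 487, 554 and 424 to 1926, 1656, 1798 and 1572 CPM (log2 fold change 1.96, SE 0.13, adjusted p = 1.25e-09). For these 4 genes no Hnf4i library of day 3 reached the level of any of day 4.

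Among the abundant Jonah genes, Jon25Biii went from 8864, 11087, 11541 and 9804 to 17934, 18972, 17634 and 19130.1 CPM (0.84 on the log2 scale). Jon65Aiv went from 8624, 5343, 4634 and 6544 to 15018, 14178, 21089 and 24272 CPM (1.57). Jon66Ci went from 2272, 3304, 4339 and 3095 to 10195, 10426, 10538 and 12059 CPM (1.73). All of these were called, and the days did not overlap. Jon65Aiii went from 2356, 1612, 1452 and 1796 to 5126, 5201, 5982 and 7621 CPM (1.73), Jon99Cii from 4529, 5631, 6242 and 4929.7 to 9522, 9604, 8841 and 10292 CPM (0.84) and Jon99Ciii from 3634, 4473, 4883 and 3989.5 to 7515, 7781, 7142 and 8333 CPM (0.86). The 9 genes that were not called included Jon74E (-0.07), iotaTry (0.35), kappaTry (0.43) and Ser6 (0.41), each of which rose in control midguts. lambdaTry, which fell in control, missed the fold minimum here (log2 fold change -0.49, SE 0.13, adjusted p = 0.00269) and was called lower with libraries scaled to their totals (-0.74, adjusted p = 9.87e-05). Without the day 4 libraries that held fat body transcripts lambdaTry was at -0.63 and Jon74E at -0.77, but then 1 Hnf4i library of day 4 is left and is assumed to vary like the other groups.

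**Figure D3:**
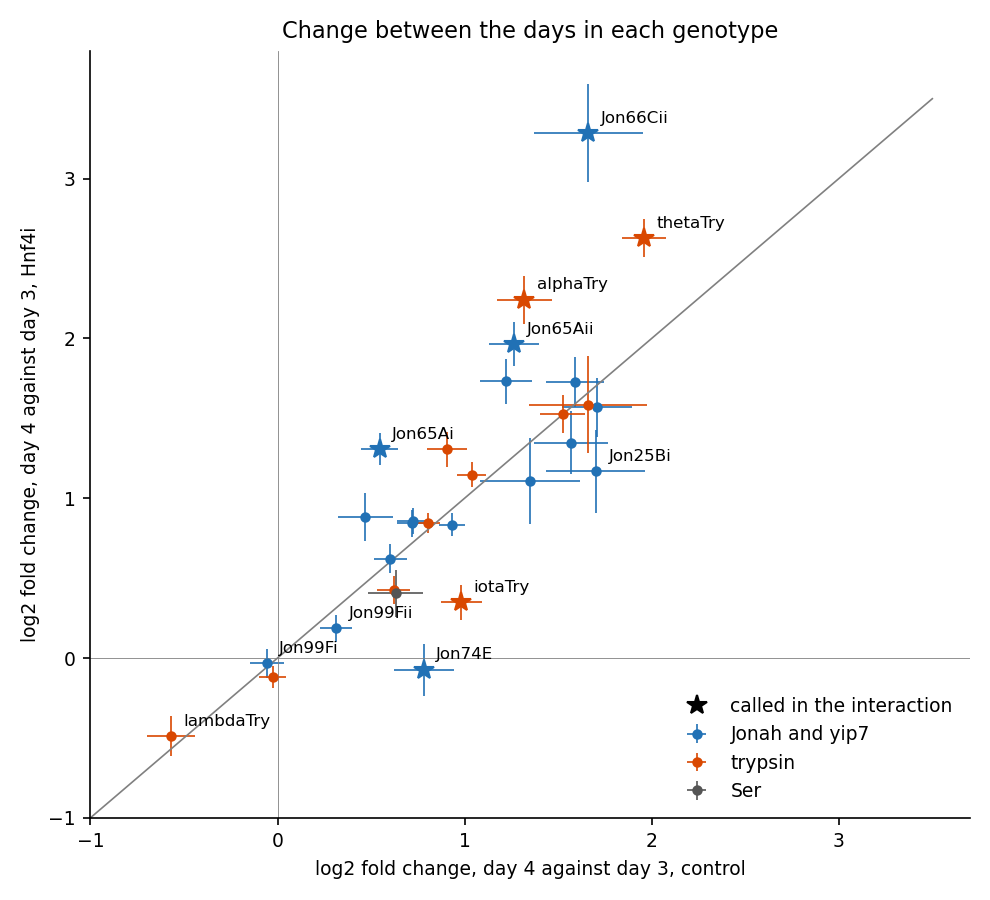
Log2 fold change of day 4 against day 3 in control (x axis) and in Hnf4i midguts (y axis) with standard errors, where each point is a gene, stars were called in the interaction, the diagonal marks equal change, and Ser8 is left out for its standard errors. Most genes lie near the diagonal between 0 and 2, Jon66Cii, thetaTry, alphaTry, Jon65Aii and Jon65Ai lie above it, and iotaTry and Jon74E below it.

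The comparison of genotypes on day 3 asks which proteases differ in the late L2 midgut when Hnf4 is silenced in enterocytes. Few were called. Of the 30 genes 1 was higher and 2 were lower in Hnf4i midguts, where 1.51% of all genes tested were higher and 2.46% lower, and the median was -0.07 beside 0.01 over all genes. Jon99Fii (FBgn0039777, chromosome 3R, positions 30487016 to 30487928) was at 3548, 4054, 3897 and 3310.4 CPM in control replicates 1 to 4 and at 1634, 1749, 1763 and 1575 CPM in Hnf4i replicates. Every Hnf4i library lay far below the lowest control library, with a log2 fold change of -1.14 (SE 0.09, adjusted p = 6.15e-08). Jon65Ai (FBgn0035667, chromosome 3L, positions 6053493 to 6054443) was at 1187, 1316, 1362 and 1419 CPM in control and 699.7, 896, 1108 and 871 CPM in Hnf4i libraries (log2 fold change -0.56, SE 0.10, adjusted p = 0.00101). deltaTry (FBgn0010358, chromosome 2R, positions 11355319 to 11356128) was at 50.7, 46.3, 47.6 and 49.7 CPM in control and 73.5, 72.3, 66.6 and 66.6 CPM in Hnf4i libraries (log2 fold change 0.52, SE 0.12, adjusted p = 0.00852). For both genes the genotypes did not overlap, but the calls rested on Hnf4i replicate 1. Without it Jon65Ai was at -0.46 (adjusted p = 0.00148) and deltaTry at 0.498 (adjusted p = 0.0265), both under the fold minimum. That leaves 1 call, beside 389 of all 9938 genes tested in that fit. With libraries scaled to their totals Jon65Ai was at -0.49, adjusted p = 0.00301 and missed the fold minimum, and the share of all called genes that were higher went from 38.0 to 50.1%.

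Other genes missed the fold minimum or the p threshold on day 3. Jon99Ciii (-0.40, SE 0.08, adjusted p = 0.00340), Jon99Cii (-0.34, SE 0.08, adjusted p = 0.0145) and Jon99Ci (-0.36, SE 0.09, adjusted p = 0.0149) were under the fold minimum, and no Hnf4i library reached the lowest control library in any of the 3. Jon74E was at 37.2, 39.6, 42.6 and 36.7 CPM in control and 24.9, 24.2, 32.4 and 26.4 CPM in Hnf4i libraries (log2 fold change -0.53, SE 0.16, adjusted p = 0.0543), also without overlap. Jon66Cii had a log2 fold change of -0.91 (SE 0.29, adjusted p = 0.0599), with overlapping groups. Without Hnf4i replicate 3, the highest of its group in both genes, Jon74E (-0.63, adjusted p = 0.0344) and Jon66Cii (-1.31, adjusted p = 0.00199) were called. The count was then 5, beside 377 of all 9909 genes tested in that fit. Jon74E also passed with DESeq2 (-0.54, adjusted p = 0.0115) and when the day 3 libraries were fitted alone (-0.53, adjusted p = 0.00321). In all, the groups of day 3 did not overlap for 1 gene that was higher and 7 that were lower in Hnf4i midguts, beside 8.32 and 9.05% of all genes tested.

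On day 4 the same question concerns the early L3 midgut. In the midguts with Hnf4 silenced, 3 of the 30 genes were called higher and 3 called lower, where 5.46% of all genes tested were higher and 6.71% lower, and the median was 0.04 beside 0.02 over all genes. The 3 that were higher are all trypsins. alphaTry was at 175, 134, 197 and 195 CPM in control replicates 1 to 4 and 340.4, 233, 383 and 382 CPM in Hnf4i replicates (log2 fold change 0.93, SE 0.15, adjusted p = 0.000123). Replicate 2 was the lowest in both genotypes, and the groups did not overlap. thetaTry was at 248, 213, 229 and 265 and 338, 341, 313 and 470.3 CPM (log2 fold change 0.61, SE 0.11, adjusted p = 0.000581) and deltaTry at 136, 118, 143 and 161 and 175, 165, 199 and 264 CPM (log2 fold change 0.53, SE 0.12, adjusted p = 0.00296). For both, replicate 4 was the highest of each genotype, and without Hnf4i replicate 4, the library with the most fat body RNA, neither was called (0.47, adjusted p = 0.000840 and 0.37, adjusted p = 0.00599), since both missed the fold minimum. deltaTry also missed it without control replicate 2 (0.45, adjusted p = 0.0131).

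Jon74E, Jon99Fii and iotaTry were lower on day 4. Jon74E (FBgn0023197, chromosome 3L, positions 17548077 to 17549127) was at 59.7, 70.3, 71.3 and 66.9 CPM in control and 25.6, 35.3, 15.8 and 25.9 CPM in Hnf4i libraries (log2 fold change -1.39, SE 0.16, adjusted p = 7.43e-06). The highest Hnf4i library, replicate 2, lay below every control library. Jon99Fii was at 4498, 4408, 4779 and 4734 CPM in control and 1768, 2311, 1688 and 1879 CPM in Hnf4i libraries (log2 fold change -1.27, SE 0.09, adjusted p = 8.10e-09), again with no overlap. iotaTry (FBgn0015001, chromosome 2R, positions 11356720 to 11357537) was at 217, 229, 244 and 229 CPM in control and 167, 158, 115 and 117 CPM in Hnf4i libraries (log2 fold change -0.72, SE 0.11, adjusted p = 8.78e-05), where Hnf4i replicates 3 and 4 lay at the day 3 level. Hnf4i replicate 3, the day 4 library of that group with almost no fat body RNA (12.8 CPM), had the lowest level of Jon74E, Jon99Fii and iotaTry in its group and the highest level of alphaTry. It also had the lowest level of thetaTry, which was called higher under silencing. In all, this library was the lowest of its group for 15 of the 30 tested genes and the highest for 2. Single libraries of the other groups were lowest about as often: control replicate 1 of day 3 for 17 genes, control replicate 2 of day 4 for 17 and Hnf4i replicate 1 of day 3 for 16. How often each library was lowest over all genes tested was not counted. Without the libraries that held fat body transcripts, which leaves Hnf4i replicate 3 alone in its group, the log2 fold change was 0.40 for thetaTry and -0.60 for kappaTry. The thetaTry value was then under the fold minimum, and no call is read from a comparison with 1 library in a group.

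Other differences on day 4 separated the groups without being called. Among the genes with a higher level in every Hnf4i than in any control library were Jon44E (0.44), Jon65Ai (0.20), Jon65Aii (0.37), Jon65Aiii (0.47), Jon66Ci (0.20) and Jon66Cii (0.71, adjusted p = 0.0739), on the log2 scale. Genes with a lower level in every Hnf4i library included Jon25Biii (-0.23), the 3 Jon99C genes (-0.34 to -0.22), kappaTry (-0.38) and Ser6 (-0.48). With the called genes, 9 genes were higher and 9 lower without overlap, beside 12.2 and 12.1% of all genes tested. With libraries scaled to their totals, which moved the median of all genes by 0.11, the share of called genes that were higher went from 44.8 to 59.6%, and Jon44E (0.54, adjusted p = 0.00893), Jon65Aiii (0.57, adjusted p = 0.00718) and Jon66Cii (0.81, adjusted p = 0.0348) were called higher as well. Jon66Cii also passed when the day 4 libraries were fitted alone (0.71, adjusted p = 0.0140).

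**Figure D4:**
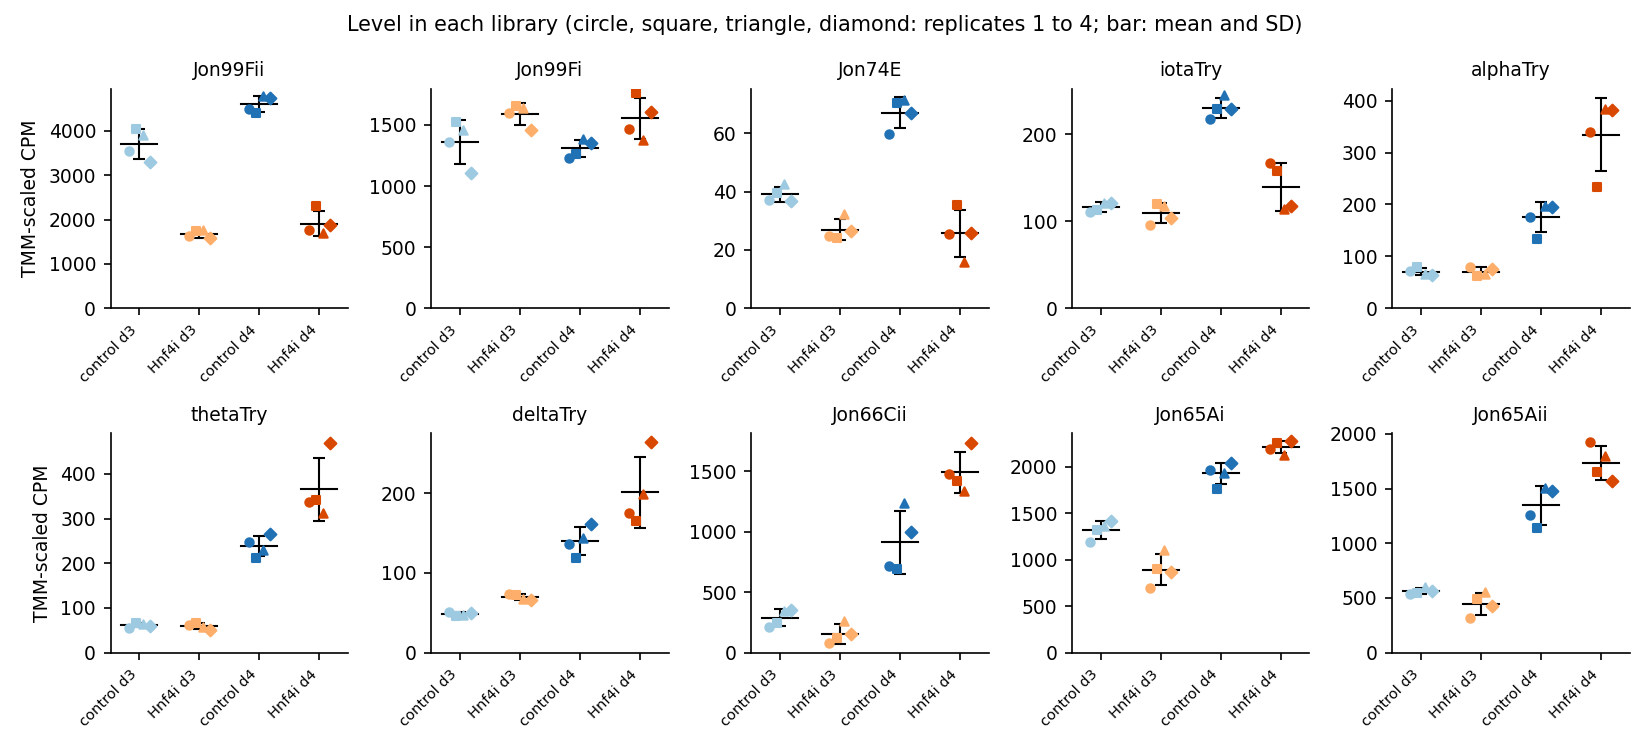
TMM-scaled CPM of 10 genes in each library, on axes that start at 0, where marker shapes stand for replicates 1 to 4, long bars for means and whiskers for SD (n = 4). Jon99Fii lies lower in Hnf4i than in control libraries on both days while its neighbour Jon99Fi does not, and Jon74E and iotaTry lie lower and alphaTry, thetaTry and deltaTry higher on day 4.

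The 2 days used separate libraries, so their separations can be compared. In 6 of the 30 genes the Hnf4i libraries lay below all control libraries on both days, beside 4.73% of all genes tested: Jon74E, Jon99Ci, Jon99Cii, Jon99Ciii, Jon99Fii and kappaTry. deltaTry was the 1 gene above control on both days, beside 3.08% of all genes. Jon65Ai changed sides, as did 0.357% of all genes, since every Hnf4i library was below control on day 3 (699.7, 896, 1108 and 871 CPM) and above it on day 4 (2186, 2259, 2128 and 2277 CPM, against 1969, 1765, 1936 and 2039.98 CPM in control). In 12 genes the groups overlapped on both days, beside 66.8% of all genes, among them Jon25Bi, Jon25Bii, Jon65Aiv, yip7 and the trypsins betaTry, epsilonTry, etaTry and zetaTry.

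The interaction tests whether the effect of silencing differed between the days. Of the 30 genes 5 were called with a higher and 2 with a lower effect on day 4, where 2.59 and 2.44% of all genes tested were. The interaction was 1.62 (SE 0.40, adjusted p = 0.0186) for Jon66Cii, whose silencing effects were -0.91 on day 3 and 0.71 on day 4, neither of them called alone. It was 0.92 (SE 0.20, adjusted p = 0.00946) for alphaTry, whose silencing effects were 0.01 on day 3 and 0.93 on day 4. For Jon65Ai it was 0.76 (SE 0.14, adjusted p = 0.00244), with a lower level on day 3 and no call on day 4. Jon65Aii (0.70, SE 0.18, adjusted p = 0.0252) and thetaTry (0.67, SE 0.16, adjusted p = 0.0152) complete the 5. The effect was lower on day 4 for Jon74E (-0.86, SE 0.23, adjusted p = 0.0283) and for iotaTry (-0.63, SE 0.15, adjusted p = 0.0163). Jon99Fii and deltaTry, called on both days, had interactions of -0.13 and 0.0031, which were not called. The calls of Jon65Aii and Jon74E were close to the threshold, and each was lost in 4 of the 16 fits that leave out 1 library: Jon65Aii without control replicate 3 or Hnf4i replicate 4 of day 3 or control replicate 1 or 2 of day 4 (adjusted p = 0.0520 to 0.0550), and Jon74E without control replicate 1 or 4 or Hnf4i replicate 3 of day 3 or control replicate 2 of day 4 (adjusted p = 0.0509 to 0.0609). Without the libraries that held fat body transcripts, which leaves 1 Hnf4i library of day 4, the interaction was 1.68 for Jon66Cii and 0.45 for thetaTry. The thetaTry value was then under the fold minimum. With 1 library in a group, no call of the interaction is read from this fit, for Jon66Cii or for any other gene.

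Neighbouring copies did not move as 1 unit. In the Jon99F pair, whose genes point away from each other with 1034 bp between them, the ratio of Jon99Fii to Jon99Fi (levels per kb) was 2.67 to 3.05 in control libraries on day 3 and 3.52 to 3.73 on day 4. In Hnf4i libraries it was 1.04 to 1.10 and 1.20 to 1.34. The 4 groups did not overlap in this ratio, which was chosen after the values were seen. Jon99Fi itself was at 1362 ± 181 and 1589 ± 88.4 CPM on day 3 and 1309 ± 71.7 and 1553 ± 167 CPM on day 4 (control and Hnf4i; SD, n = 4), with overlapping genotypes on both days. In the trypsin cluster, read along the chromosome, the log2 fold changes on day 4 were 0.21 for lambdaTry, -0.38 for kappaTry, -0.07 for zetaTry, 0.02 for etaTry, 0.61 for thetaTry, 0.93 for alphaTry, 0.32 for epsilonTry, 0.11 for betaTry, 0.55 for gammaTry, 0.53 for deltaTry and -0.72 for iotaTry. The genes from thetaTry to deltaTry all had positive values on day 4, a stretch noticed in the data, but only thetaTry, alphaTry and deltaTry were called. On day 3 the values were -0.05 for thetaTry, 0.01 for alphaTry, -0.08 for epsilonTry and -0.004 for betaTry. They were 0.62 for gammaTry and 0.52 for deltaTry. On day 4 iotaTry, 591 bp beyond deltaTry, was the lowest of the cluster. gammaTry, between betaTry and deltaTry, stood at only 0.960 ± 0.177 CPM in control midguts on day 4 (SD, n = 4), beside 139.7 ± 17.6 CPM for deltaTry.

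Summing the counts of each locus removes the split of counted reads between its listed copies. It does not recover shared reads that were not counted or that were counted for other genes. Between the days, 5 of the 6 loci rose in both genotypes. The Jon65A cluster with yip7 rose by 1.54 (SE 0.15, adjusted p = 8.15e-08) in control and 1.58 (SE 0.15, adjusted p = 5.56e-08) in Hnf4i midguts on the log2 scale. The Jon66C pair rose by 1.26 (SE 0.14, adjusted p = 8.09e-07) and 1.85 (SE 0.15, adjusted p = 7.29e-09), and the trypsin cluster by 0.85 (SE 0.07, adjusted p = 6.40e-09) and 1.04 (SE 0.07, adjusted p = 4.93e-10). The Jon99F pair was not called, at 0.22 (SE 0.08, adjusted p = 0.0267) and 0.09 (SE 0.08, adjusted p = 0.385). It was the 1 locus lower under silencing, with a day 3 value of -0.63 (SE 0.08, adjusted p = 5.82e-05) and a day 4 value of -0.77 (SE 0.08, adjusted p = 2.56e-06). The trypsin cluster as a sum was at 0.18 (SE 0.07, adjusted p = 0.0570) on day 4, the Jon99C cluster was at -0.37 (SE 0.08, adjusted p = 0.00663) and -0.25 (SE 0.08, adjusted p = 0.0323) on the earlier and the later day, and no locus sum was called in the interaction.

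Replicates of a group differed in a pattern shared by several Jonah genes, which was noticed in the data. In Hnf4i midguts on day 3, Jon25Bi, Jon25Bii, Jon65Aiii, Jon65Aiv and yip7 were all highest in replicate 1 and lowest in replicate 3, by 1.62 to 2.69-fold. Jon66Ci and Jon66Cii had the reverse order, lowest in replicate 1 and highest in replicate 3, by 1.91 and 3.41-fold. In control midguts on day 3 the same 5 genes were higher in replicates 1 and 2 than in replicates 3 and 4, and the Jon66C pair was lower in replicates 1 and 2. On day 4 the 5 genes were higher in replicates 3 and 4 than in replicates 1 and 2 of both genotypes, and in control midguts the Jon66C pair shared that order. Jon25Biii, in the same cluster as Jon25Bi and Jon25Bii, did not follow them on day 3: in Hnf4i midguts it was lowest in replicate 1 (8864, 11087, 11541 and 9804 CPM), where Jon25Bi was highest (2261, 1171, 869 and 1576 CPM). What sets this pattern was not tested.

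**Figure D5:**
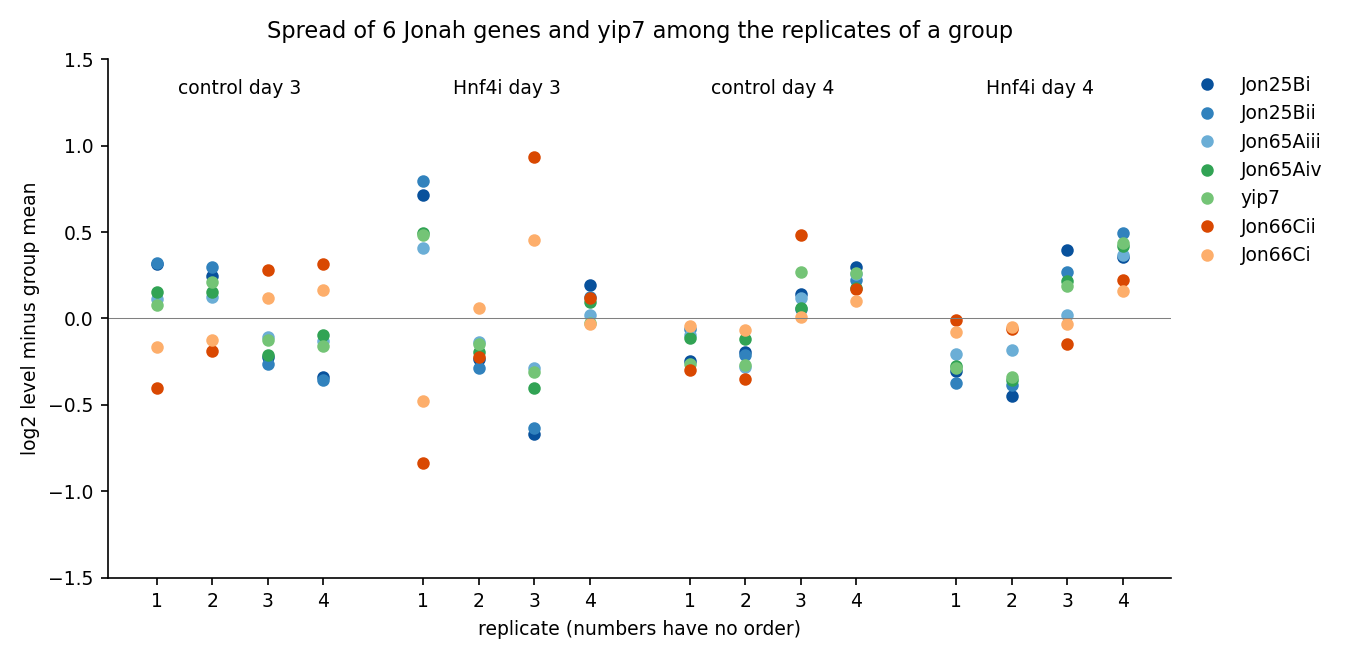
Log2 level minus the mean of its group for 6 Jonah genes and yip7 in each of the 16 libraries, with 1 point per gene and library. In the 4 control libraries of day 3 and in Hnf4i replicates 1 and 3 of day 3 the points of Jon25Bi, Jon25Bii, Jon65Aiii, Jon65Aiv and yip7 lie on the other side of 0 from those of Jon66Ci and Jon66Cii, with replicate 1 of the Hnf4i group at 0.80 for Jon25Bii and -0.84 for Jon66Cii.

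Other digestive enzymes of the midgut were counted in the same way. The carbohydrases and lipases were those listed by the study. The other proteases were those of its list apart from the genes described here, with CtsL1, CtsB, cathD and Bace added. On day 4, of 15 carbohydrases, 2 were higher and 11 lower in Hnf4i midguts (median -0.67). The list holds lysozyme genes beside amylases and maltases. The 2 that were higher were the lysozyme genes LysE (1.67) and LysX (1.21), named after their values were seen, while the lysozyme gene LysB was lower (-0.66). Of 11 lipases none was higher and 5 were lower (median -0.38). Of 17 tested genes in a list of 18 other proteases, which included cathepsins and Bace, 2 were higher and 1 lower (median 0.27), beside 3 and 3 of 30 Jonah, trypsin and Ser genes (median 0.04). These differences between lists were not tested. Over all genes tested, 5.46% were higher and 6.71% lower in this comparison. Between the days in control midguts, 13 of 15 carbohydrases and 9 of 11 lipases rose and none fell, and 7 of 17 other proteases rose and 2 fell, where 17.0% of all genes rose and 22.2% fell. The medians were 1.58, 1.75 and 0.39, beside 0.96 for the serine proteases described here. CtsB, cathD and Bace, which are not from the study's list, were among the 7 other proteases that rose. Among the other proteases, CG8560 was lower on both days (-1.18, SE 0.07, adjusted p = 2.55e-09, and -1.14, SE 0.07, adjusted p = 1.66e-09), and Bace, which encodes an aspartic protease, was lower on day 3 (-0.90, SE 0.20, adjusted p = 0.00624) and higher on day 4 (0.97, SE 0.19, adjusted p = 0.00111). Both were named after their values were seen.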

How the data were processed

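The authors deposited raw counts for each gene in each library, CPM values (equal to counts over library totals within 4.91e-11) and, per comparison, log2 fold changes with adjusted p-values. The log2 fold changes and p-values deposited by the authors were not used. By the submitters' processing notes, Trimmomatic 0.39 trimmed the reads, STAR 2.7.10b aligned them to BDGP6, FastQC 0.11.7 and MultiQC 1.12 served for quality control, and DESeq2 1.49.3 in R 4.5.1 for the deposited comparisons. Salmon, a quantification tool, is named in the software list of the study but not tied to these libraries, and which tool counted their reads, with which strand setting and annotation, is not given in the sources used here. Of 24254 entries, 6381 that are not genes held 0.0365 to 0.0489% of each library's counts and entered no test. Positions and exon lengths came from the Ensembl annotation (release 115).

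edgeR 4.0.16 in R 4.3.3 was used on the counts. filterByExpr (minimum count 10, minimum total 15) kept 9801 genes, TMM factors scaled the libraries, and all 16 libraries entered 1 model with the 4 groups. The 5 comparisons used edgeR's quasi-likelihood test (two-sided, Benjamini-Hochberg over all genes tested). The steps were tested on simulated data. Levels and SDs are TMM-scaled CPM, and the p-values rest on 4 biological replicates per group.

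Members are named by role. Values in every library are given for the 6 with the highest level per kb and, per comparison, for up to 4 called members with the largest change and at least 10 CPM in a group. Other values per library and genes named for a lost or gained call were chosen after their values were seen. The members and gene lists were chosen with earlier results of these data known. Replicates with the same number were not paired: correlations of their deviations from the group means ran from -0.17 to 0.09 over 16 pairs. The least different replicates differed by 16.5 times the sampling noise (chi-square per degree of freedom), so none was counted as a duplicate. Alternatives were DESeq2 1.42.0 and its size factors, library totals, scaling without the members' reads, no filter, only the groups compared, the replicate block and leaving out each library, with locus sums (gaps of at most 20 kb) and fits without the 4 day 4 libraries with fat body transcripts (control replicate 3, Hnf4i replicates 1, 2 and 4) added after seeing the data. No sequences were analysed here.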

Additional observations from a re-analysis of the deposited data

Results flagged for a closer look

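For 7 genes the effect of silencing differed between the days by the test of the interaction in edgeR (n = 4 libraries per group). The interaction on the log2 scale was 1.62 for Jon66Cii, 0.92 for alphaTry, 0.76 for Jon65Ai, 0.70 for Jon65Aii and 0.67 for thetaTry, and -0.86 for Jon74E and -0.63 for iotaTry. In 120 groups of 4 values, 1 held a library far from the others, replicate 3 for Ser8 in Hnf4i midguts on day 3, a gene at 0 to 31 counts. Chance alone gives about 1 such group in 20.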

How the results depend on the processing

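Members called in at least 1 fit of a comparison were followed through its alternative fits. A value was the same if it kept its sign and its state, called or not called. In control midguts between the days 636 of 648 alternative values were the same, and 561 of 576 in Hnf4i midguts. For silencing these were 108 of 120 on day 3 and 243 of 264 on day 4, and for the interaction 195 of 207. Leaving out 1 library at a time moved the number of members called on day 3 between 1 and 5 (3 with all libraries). Over all genes tested, the number called there moved between 350 and 409 (389 with all libraries). Jon74E, not called between the days in Hnf4i midguts, ran from -0.27 to 0.091 on the log2 scale in these fits. Jon25Biii, the most abundant gene, was also left out of both the members' counts and the library totals. The members' share was then 4.28% in control and 3.98% in Hnf4i midguts on day 3, and 7.23 and 7.71% on day 4. Of 1758 alternative values of results that were never called, 79 changed sign. With the replicate block, which pairs libraries by number, 25, 22, 4, 8 and 7 members were called between the days in control and Hnf4i midguts, for silencing on day 3 and day 4 and for the interaction. Over all 9801 genes tested, 3815, 4140, 383, 1157 and 484 were called in these fits. Only 3 of the 16 comparisons of same-numbered libraries had the own number as the best match. That count cannot show whether libraries form blocks of several numbers. By chi-square per degree of freedom, replicates 1 and 2 and replicates 3 and 4 were the least different pairs in both control groups. The same held in Hnf4i midguts on day 4 (45.8 and 62.1, against 114 to 179 for the other pairs), but not on day 3. Whether these libraries share a batch was not tested. Sums over genes of near-identical sequence were not run, since no sequences were used here. At the counts of Ser7 and Ser12 a difference between groups was not detectable, and Ser8 passed between the days in control midguts with those groups alone in the fit (1.56, adjusted p = 0.0183), without Hnf4i replicate 2 of day 4 (1.60, adjusted p = 0.0434) and without the libraries with fat body transcripts (1.79, adjusted p = 0.0351), beside edgeR's 1.60 (adjusted p = 0.0697) with all libraries.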
